A study of Mus musculus with 9 samples.

Results

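Hyaline cartilage is built by chondrocytes, which arise from mesenchymal progenitor cells (MPCs) and fill the space around them with a matrix of fibrillar collagen, the large proteoglycan aggrecan and smaller proteins that tie these together. Chromatin near the genes for these proteins was examined in ATAC-seq data, in which a transposase cuts accessible DNA and clusters of cut fragments are called as peaks. The 10 genes were *Col2a1*, *Col9a1* and *Col11a1* (collagen chains of cartilage fibrils), *Acan* (aggrecan), *Hapln1* (the link protein that fixes aggrecan to hyaluronan), *Comp*, *Matn1*, *Matn3* and *Chad* (adaptor proteins of the matrix) and *Cnmd* (chondromodulin, a membrane glycoprotein that inhibits the growth of blood vessels into cartilage). A region was a stretch of touching or overlapping peaks from any of the 9 libraries, and a consensus region had a peak in at least 2 of the 3 libraries of some line. Of 97338 consensus regions, 102 had their nearest protein-coding start site at one of these 10 genes. *Col11a1* had 29 of them, *Hapln1* 18, *Col9a1* and *Col2a1* 13 each, *Comp* and *Cnmd* 8 each, *Matn3* 5, *Acan* 4, and *Matn1* and *Chad* 2 each. The assignment is by distance alone, and no value here says which gene a region acts on.

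All 9 libraries came from C3H/10T1/2, a mouse line used as a model of MPCs, in undifferentiated culture. There were 3 libraries of WT cells, which had received a Cas9 vector without a guide RNA, and 3 of each *Atrx* knockout (KO) clone, B10 and G7, made with Cas9 and a guide against *Atrx*, the gene of an X-linked chromatin remodeler. Each KO line is 1 clone. The paper names an isogenic WT control, and its workflow seeded sorted cells 1 per well, so WT may also come from 1 cell. A trait of that WT line cannot be told apart from a change shared by both clones. Nothing in the labels says that the 3 libraries of a line came from separate cultures, so p-values measure only the spread between these libraries. One set of 3 WT libraries served as reference for either clone, so the results of the clones are not independent of each other. In bulk cells, more cells with an open region and a region more open in each cell cannot be told apart.

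The lists held between 76385 (G7 replicate 3) and 88535 (B10 replicate 1) peaks per library on the autosomes and sex chromosomes, and B10 libraries had the most. Read depth is unknown, because the lists hold no read counts. As a measure of strength, each peak was given its rank, the percentile of its −log10 q among all peaks of its own library, with 100 the highest. Start sites of 7 of 8 mesenchymal markers lay in a region with a peak in at least 2 libraries of each line (not *Thy1*), and none of 4 haematopoietic and none of 4 epithelial markers did in any line. Among 3 endothelial markers *Cdh5* did in B10 alone, with ranks of 8.6 and 4.5, and among 3 neural markers *Rbfox3* did in WT alone, with ranks of 5.3 and 3.3. The chondrocyte markers *Col2a1* and *Col9a1* had such a region in every line, while *Acan*, *Matn1* and *Comp* had none in any. The region over the start of *Atrx* ranked between 80.8 and 86.0 in the 9 libraries. It does not check the labels, because editing a gene need not close its promoter.

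KO libraries held more of the cartilage matrix regions than WT libraries. Of the 102 regions, WT replicates 1 to 3 had a peak in 70, 64 and 62, B10 replicates in 87, 91 and 87, and G7 replicates in 86, 85 and 83. The means were 65.3 ± 4.2 (SD, n = 3) in WT, 88.3 ± 2.3 (SD, n = 3) in B10 and 84.7 ± 1.5 (SD, n = 3) in G7, and neither clone overlapped WT. Over all consensus regions, a peak was present in 74.6% to 76.1% in WT, 78.0% to 82.6% in B10 and 74.1% to 75.7% in G7.

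**Figure D1:**
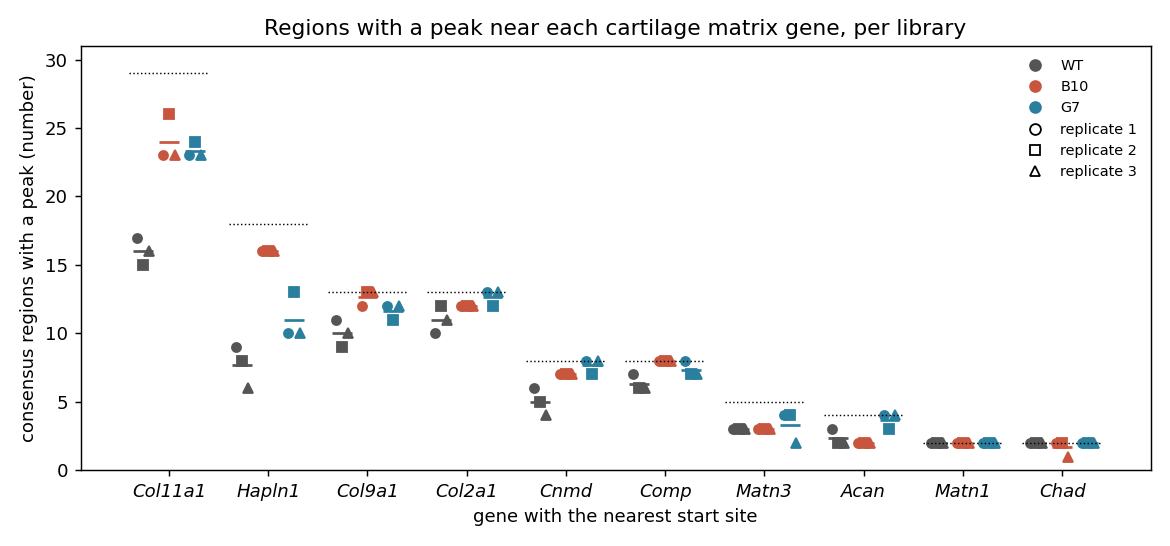
Number of consensus regions with a peak (y axis) near each of the 10 genes (x axis) in each library, with color for the line, symbol shape for the replicate, short bars for the line means and dotted lines for the number of regions of that gene. All KO libraries lie above all WT libraries for *Col11a1*, *Hapln1* and *Cnmd*, and the lines do not separate for *Matn1* and *Matn3*.

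Gained in a clone here means a peak in 2 or 3 of its libraries with no WT peak, and lost means a peak in 2 or 3 WT libraries with none in the clone. Near the cartilage matrix genes 13 regions were gained in both clones and none was lost in both, where 2.97% of all consensus regions were gained and 4.36% were lost. The 13 make up 12.7% of the 102. In B10 alone or with G7, 24 were gained and 2 lost (10.4% and 7.58% of all regions), and in G7 17 were gained and 1 lost (5.69% and 7.42%). The 13 regions lay near *Col11a1* (6), *Hapln1* (3), *Col2a1*, *Col9a1*, *Matn3* and *Cnmd* (1 each), and none lay over a start site. Of these 13, 9 were intergenic, 3 lay in introns, and 9 were more than 50 kb from the nearest start. Many were weak, since 8 of the 13 had no peak above rank 30 in any library. With the start site required to lie within 50 kb, 4 of 60 regions were gained in both, and the share over all regions within 50 kb was not computed. With equal numbers of peaks per library 8 of 96 were gained and 1 was lost, where 2.77% and 4.84% of all regions were.

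**Figure D2:**
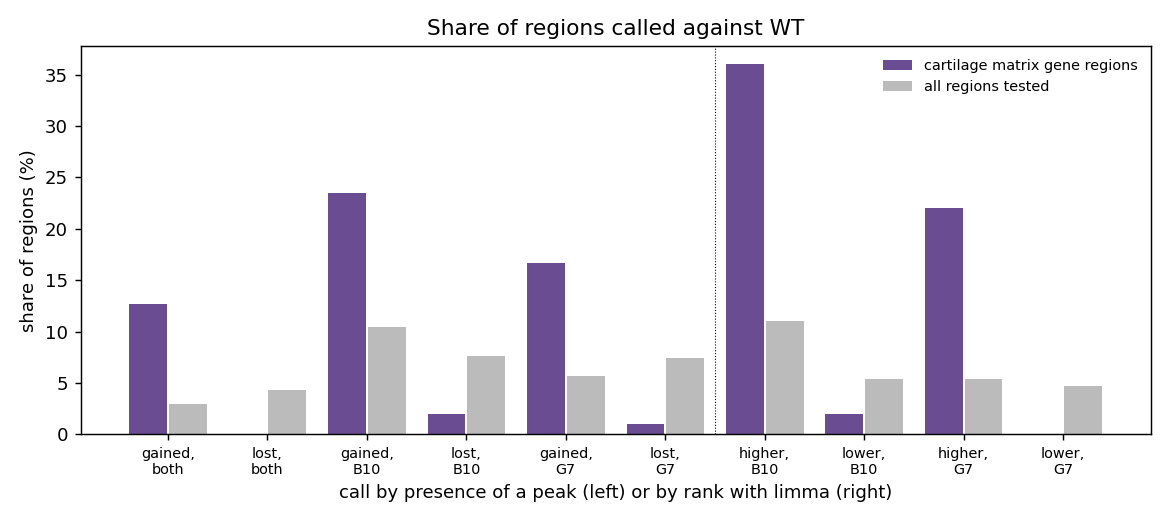
Share of regions called against WT (y axis, percent), for the regions of the 10 genes (purple) and for all regions tested (grey), by presence of a peak in the left 6 pairs of bars and by rank in the right 4 pairs. Gained in both clones stands at 12.7% against 2.97%, and lost in both at 0 against 4.36%.

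Ranks were compared in regions with a peak in all 9 libraries, 50 of the 102 and 47431 in all, with limma and Benjamini-Hochberg adjustment over the 47431. In B10, 18 of the 50 regions ranked higher than in WT and 1 ranked lower (11.0% and 5.34% of all regions tested). In G7, 11 ranked higher and none lower (5.41% and 4.75%). The 11 regions higher in G7 were the 11 that were higher in both clones, where 3.79% of all regions were, and none was lower in both (1.61%). The median rank difference over the 50 regions was 9.70 percentile points in B10 and 3.68 in G7, beside 0.70 and −0.03 over all shared regions. With the replicate number as a block, 27 were higher and 2 lower in B10 (22.2% and 12.7% of all regions tested), and 15 were higher and 4 lower in G7 (13.8% and 14.2%). Between the clones, 2 of the 50 ranked higher in B10 than in G7 and 1 lower (4.09% and 2.31% of all regions tested), and with no peak taken as rank 0, 5 of the 102 were higher and 5 lower (5.60% and 2.37% of all 97338 regions). Strength taken as log2 fold enrichment over background in place of rank gave another picture. With it 6 regions were higher and 3 lower in B10 (3.03% and 3.12% of all regions tested), and 4 were higher and 2 lower in G7 (1.42% and 1.29%). The median difference was 0.02 in B10 and −0.03 in G7 on the log2 scale, beside 0.01 in both over all regions.

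**Figure D3:**
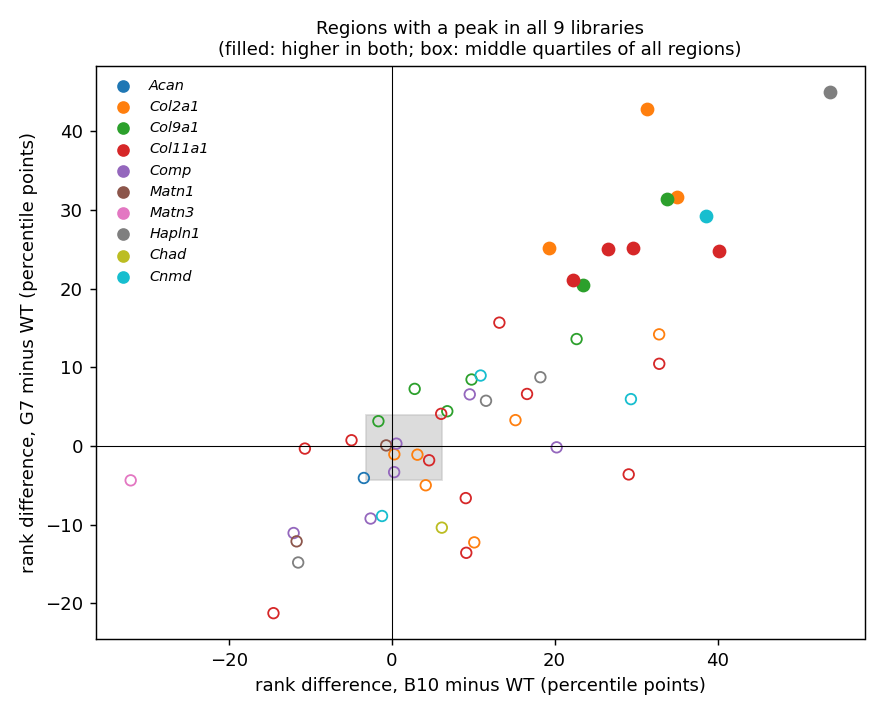
Rank difference from WT in B10 (x axis) and G7 (y axis), in percentile points, for the 50 regions with a peak in all 9 libraries, colored by gene. Filled points are the 11 regions higher in both clones, and the grey box spans the middle quartiles of all 47431 regions. Points reach 53.7 in B10 and 45.0 in G7, both at the *Hapln1* region 144.0 kb upstream.

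Sequences of the regions that the results turn on were read from the mouse genome GRCm38.p6, the sequence of the mm10 build that the peaks use. The first 2 are the 250 bases before the annotated start of *Matn3*, whose promoter region ranked lower in B10, and of *Hapln1*, whose promoter region was nearly absent from WT. The rest are 201 bases around the mean summit of distal regions, on the strand of the gene. They were chosen because these regions were higher or gained in both clones, or for *Acan* because the clones lay on opposite sides of WT. Capitals mark exact matches on either strand to ACAAAG or ACAATG (SOX), TGACTCA, whose reverse complement is TGAGTCA (AP-1), GGAATG (TEAD) and TGTGGT (RUNX).
*Matn3* upstream of the start (chr12:8947679-8947928, plus strand): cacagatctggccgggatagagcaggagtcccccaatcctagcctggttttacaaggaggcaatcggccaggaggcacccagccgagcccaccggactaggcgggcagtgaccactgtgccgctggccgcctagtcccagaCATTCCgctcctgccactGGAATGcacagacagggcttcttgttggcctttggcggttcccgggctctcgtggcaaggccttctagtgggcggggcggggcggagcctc
*Hapln1* upstream of the start (chr13:89539546-89539795, plus strand): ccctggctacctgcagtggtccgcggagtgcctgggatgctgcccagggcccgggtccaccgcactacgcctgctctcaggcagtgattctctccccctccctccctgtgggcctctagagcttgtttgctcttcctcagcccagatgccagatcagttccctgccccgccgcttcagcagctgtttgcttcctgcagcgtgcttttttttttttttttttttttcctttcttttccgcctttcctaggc
*Hapln1* 144.0 kb upstream (chr13:89395019-89395219, plus strand): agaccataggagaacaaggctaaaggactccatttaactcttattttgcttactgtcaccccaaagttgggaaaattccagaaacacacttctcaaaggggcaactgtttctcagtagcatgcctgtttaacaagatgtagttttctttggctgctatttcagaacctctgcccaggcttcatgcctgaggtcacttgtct
*Cnmd* 18.3 kb upstream (chr14:79680695-79680895, minus strand): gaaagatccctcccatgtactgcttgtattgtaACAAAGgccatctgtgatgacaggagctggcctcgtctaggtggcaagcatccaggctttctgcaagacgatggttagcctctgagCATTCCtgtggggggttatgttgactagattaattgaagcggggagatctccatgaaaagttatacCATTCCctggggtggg
*Col11a1* 51.1 kb downstream (chr3:114082197-114082397, plus strand): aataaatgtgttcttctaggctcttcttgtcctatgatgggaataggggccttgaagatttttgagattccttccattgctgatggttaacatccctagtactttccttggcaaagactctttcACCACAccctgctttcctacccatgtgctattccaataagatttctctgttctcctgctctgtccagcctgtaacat
*Col9a1* 16.5 kb downstream (chr1:24212105-24212305, plus strand): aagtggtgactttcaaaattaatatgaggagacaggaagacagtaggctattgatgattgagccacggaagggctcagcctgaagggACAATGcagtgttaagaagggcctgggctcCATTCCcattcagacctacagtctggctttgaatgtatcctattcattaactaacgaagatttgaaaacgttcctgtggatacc
*Acan* 62.4 kb upstream (chr7:78990372-78990572, plus strand): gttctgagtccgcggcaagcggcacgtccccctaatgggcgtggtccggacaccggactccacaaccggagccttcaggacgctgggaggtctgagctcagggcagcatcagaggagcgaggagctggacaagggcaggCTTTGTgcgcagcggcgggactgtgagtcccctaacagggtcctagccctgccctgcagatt
Such matches are descriptions of these letters and not sites of binding. Among all consensus regions, 27.2% held a SOX match within 100 bp of the mean summit, 17.8% an AP-1 match, 15.8% a TEAD match and 21.9% a RUNX match. Of the 102 cartilage matrix regions, 34.3% held a SOX match, 5.88% an AP-1 match, 21.6% a TEAD match and 18.6% a RUNX match. In the 24 of them gained or higher in both clones, 8 held a SOX match, 3 an AP-1 match, 9 a TEAD match and 6 a RUNX match. Among 250-base stretches before RefSeq starts, 12.6% of 32851 held a TEAD match, of which the stretch before *Matn3* has 2.

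*Col2a1* encodes the chain of type II collagen, the main fibrillar collagen of cartilage. The region over its start site (chr15:98004276-98004900) ranked 14.8, 6.5 and 2.1 in WT replicates 1 to 3, 44.8, 36.5 and 36.0 in B10, and 54.8, 48.3 and 48.6 in G7. All 6 KO libraries stood above all 3 WT libraries, and WT peaks here were among the weakest of their libraries. The difference from WT was 31.3 percentile points in B10 (SE 5.69, limma adjusted p = 0.00542) and 42.8 in G7 (SE 5.69, limma adjusted p = 0.00204). On the fold enrichment scale the call was kept in G7 (0.57 log2, limma adjusted p = 0.0153) and was not made in B10 (0.32 log2, limma adjusted p = 0.0842). A region inside the gene 1.4 kb from the start, chosen after its values were seen, was among the strongest peaks of every library, at ranks of 94.4 to 99.1.

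Upstream of *Col2a1*, the region 28.6 kb away ranked 77.2, 49.1 and 33.7 in WT, 93.8, 90.9 and 80.3 in B10, and 89.6, 86.3 and 78.8 in G7. It was higher by 35.0 in B10 (limma adjusted p = 0.0233) and by 31.6 in G7 (limma adjusted p = 0.0480). An intronic region 11.4 kb downstream rose from 56.0, 37.6 and 36.6 in WT to between 61.7 and 63.7 in B10 and between 67.8 and 68.9 in G7. Its B10 difference of 19.3 (limma adjusted p = 0.0321) turned to −1.60 when peaks were ranked by fold enrichment. A weak region 6.1 kb upstream was gained in both clones, at ranks of 12.5, 12.6 and 10.8 in B10 and 4.7 and 4.6 in G7 replicates 1 and 3. Regions 14.1 kb downstream and 17.0 kb upstream, chosen after their values were seen, were called against WT in neither clone. B10 ranked above G7 at both (9.18 and 22.4, limma adjusted p = 0.0281 and 0.0329). With the replicate block they were higher than WT in B10 (4.19 and 10.1, limma adjusted p = 0.00430 and 0.0467) and lower in G7 (−4.99 and −12.2, limma adjusted p = 0.00192 and 0.0240). Over the 9 shared regions of the gene the median difference was 15.2 in B10 and 3.28 in G7, against 0.44 and 0.09 in other shared regions within 5 Mb and 0.52 and −0.09 on chromosome 15.

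*Col9a1* encodes a chain of type IX collagen, which coats the type II fibrils. Of its 2 annotated starts, the region found (chr1:24195158-24197038) covered the one 17.5 kb inside the gene, and no region covered the other. It ranked 65.4, 61.0 and 51.5 in WT, 86.5, 79.8 and 82.2 in B10, and 88.9, 74.7 and 75.6 in G7, without overlap between KO and WT. The difference was 23.5 in B10 (SE 4.53, limma adjusted p = 0.00719) and 20.4 in G7 (SE 4.53, limma adjusted p = 0.0201), and neither passed as fold enrichment (limma adjusted p = 0.108 and 0.188). A region 35.1 kb downstream of that start, over an exon, went from 42.7, 11.3 and 22.7 in WT to 69.7, 58.7 and 49.6 in B10 and 63.3, 52.0 and 55.3 in G7 (limma adjusted p = 0.0210 and 0.0397). The intronic region 16.5 kb downstream had no WT peak and ranked 66.2, 49.3 and 42.5 in B10 and 50.2, 45.4 and 11.6 in G7. Other shared regions within 5 Mb had a median difference of 0.87 in B10 and −1.31 in G7, while the 7 shared *Col9a1* regions had 9.81 and 8.44.

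*Col11a1* encodes a chain of type XI collagen, which sits in the core of the same fibrils. The region over its start (chr3:114030018-114030986) ranked 76.8, 74.6 and 68.3 in WT, 82.7, 77.1 and 78.1 in B10, and 80.8, 76.5 and 74.7 in G7. The promoter was already strong in WT and G7 overlapped WT, with differences of 6.09 (limma adjusted p = 0.181) and 4.09 (limma adjusted p = 0.411). With the replicate block the B10 difference passed (limma adjusted p = 0.0271).

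An intergenic region 119.5 kb upstream of *Col11a1* ranked 59.3, 50.8 and 41.8 in WT, 78.2, 76.0 and 77.3 in B10, and 73.7, 78.2 and 75.1 in G7. The rise was 26.5 in B10 and 25.0 in G7 (SE 4.18, limma adjusted p = 0.00280 and 0.00575), and it also passed as fold enrichment in both (0.59 and 0.50 log2, limma adjusted p = 0.0122 and 0.0355). An intronic region 51.1 kb downstream ranked 29.5, 33.5 and 22.7 in WT, 66.3, 73.4 and 66.4 in B10, and 49.3, 55.5 and 55.1 in G7. B10 lay above G7 and G7 above WT there, with differences from WT of 40.1 and 24.7 (SE 4.92, limma adjusted p = 0.000810 and 0.0128), and the gap between clones missed the threshold (15.4, limma adjusted p = 0.0954). The region 1.9 kb upstream went from 72.0, 40.3 and 43.6 in WT to between 76.1 and 85.1 in B10 and between 73.9 and 80.2 in G7 (limma adjusted p = 0.0184 and 0.0489). The region 99.4 kb upstream, chosen after its values were seen, was higher in both clones as well.

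The 6 *Col11a1* regions gained in both clones were faint apart from 1. The region 54.6 kb upstream ranked 51.2, 42.3 and 35.6 in B10 and 43.8 and 37.8 in G7 replicates 1 and 3. The one 344.5 kb downstream ranked between 6.2 and 27.7 in B10 and between 6.0 and 28.3 in G7. Those 91.2, 157.1, 191.3 and 192.4 kb downstream, the last 2 beyond the end of the gene, had ranks from 0.6 to 23.2 and lacked a peak in at least 1 KO library each. The intronic region 1.2 kb inside the gene ran the other way, at 66.7, 62.8 and 57.7 in WT, 58.3, 50.8 and 34.6 in B10, and 36.3, 41.3 and 45.9 in G7. It was not called by rank (limma adjusted p = 0.156 and 0.0633), passed in G7 with the replicate block (−21.2, limma adjusted p = 0.0119), and passed in both as fold enrichment (−0.67 and −0.70 log2, limma adjusted p = 0.0312 and 0.0401). This region was chosen after its values were seen. Over the 15 shared regions of *Col11a1* the median difference was 13.2 in B10 and 4.09 in G7, beside 0.29 and 0.60 within 5 Mb.

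**Figure D4:**
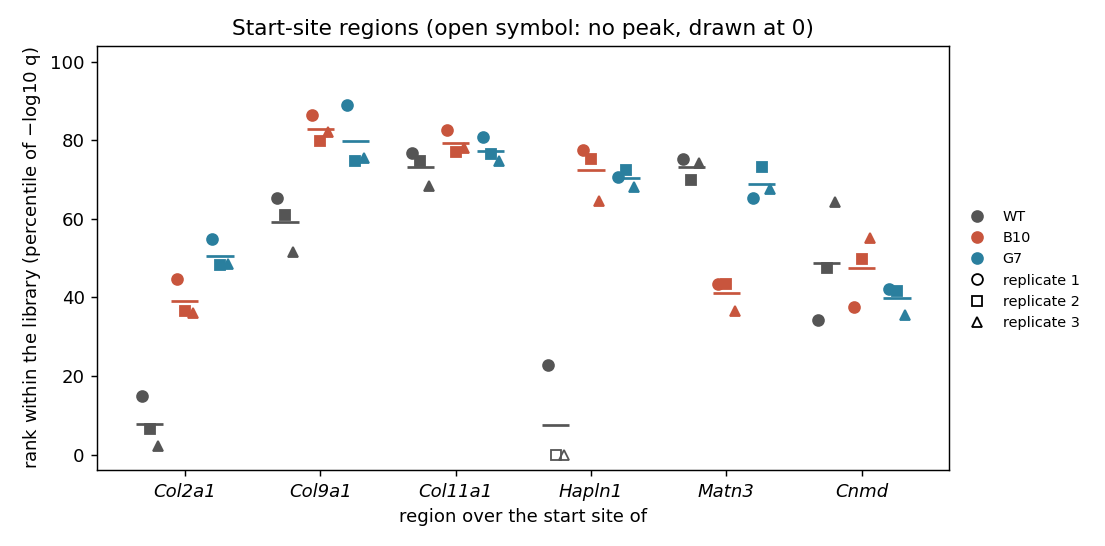
Rank within the library (y axis, percentile of −log10 q) of the 6 regions that cover a start site (x axis), with color for the line, symbol shape for the replicate, bars for the line means and open symbols at 0 for no peak. *Col2a1*, *Col9a1* and *Hapln1* separate KO from WT, *Matn3* separates B10 from the other lines, and *Col11a1* and *Cnmd* overlap.

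*Hapln1* had the largest difference of the 6 start-site regions. The region over its start (chr13:89539494-89541123) had a peak in WT replicate 1 alone, at rank 22.7, and ranked 77.6, 75.2 and 64.5 in B10 and 70.6, 72.3 and 68.1 in G7. Because of that 1 WT peak it was not called gained. Taking no peak as rank 0, the mean was 7.56 ± 13.1 (SD, n = 3) in WT, 72.4 ± 6.9 (SD, n = 3) in B10 and 70.3 ± 2.1 (SD, n = 3) in G7. In the fit over all consensus regions with that coding the difference was 64.9 in B10 (limma adjusted p = 0.000409) and 62.8 in G7 (limma adjusted p = 0.000743). Its mean summit lay in the first exon, 785 bp past the annotated start. Next to it, an intronic region 2.6 kb downstream ranked 58.6, 61.5 and 62.1 in WT, 60.3, 43.1 and 44.4 in B10, and 51.1, 46.4 and 40.3 in G7. By rank it was not called (limma adjusted p = 0.200 and 0.128), except in G7 with the replicate block (−14.8, limma adjusted p = 0.0366). As fold enrichment it was lower in both clones (−1.29 and −1.19 log2, limma adjusted p = 0.00421 and 0.00987). It too was chosen after its values were seen.

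A region 144.0 kb upstream of *Hapln1* ranked 53.0, 16.5 and 8.2 in WT, 85.4, 74.7 and 78.9 in B10, and 80.8, 65.6 and 66.4 in G7. The differences of 53.7 and 45.0 (SE 9.95, limma adjusted p = 0.00597 and 0.0198) were the largest of the 50 shared regions in each clone, and both passed as fold enrichment (1.43 and 1.30 log2, limma adjusted p = 0.0197 and 0.0447). WT replicate 1 stood well above the other WT libraries at this region. Of the 3 *Hapln1* regions gained in both clones, the intronic one 54.2 kb downstream ranked 57.5, 38.2 and 11.9 in B10 and 43.5, 21.7 and 16.9 in G7. The one 85.8 kb upstream ranked 19.5, 22.6 and 14.8 in B10 and 3.6, 14.0 and 14.2 in G7. The one 154.8 kb upstream had peaks in replicates 2 and 3 of each clone, at ranks of 11.4 to 14.2. *Hapln1* is also where the clones differed most in number, with a peak in 16 of 18 regions in every B10 library and in 10, 13 and 10 in G7, against 9, 8 and 6 in WT. Shared regions within 5 Mb of the gene had a median difference of 4.90 in B10 and −0.19 in G7, and those of *Hapln1* had 14.9 and 7.24.

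*Cnmd* kept its promoter in every line. The region over its starts (chr14:79660646-79662256) ranked 34.2, 47.4 and 64.3 in WT, 37.5, 49.8 and 55.1 in B10, and 42.2, 41.7 and 35.4 in G7, and the lines overlapped (limma adjusted p = 0.943 and 0.526). The region 18.3 kb upstream ranked 48.0, 56.5 and 49.3 in WT, 87.9, 91.5 and 90.3 in B10, and 84.1, 77.8 and 79.8 in G7. Its replicates were tight, and the differences of 38.6 and 29.3 (SE 2.95) had the smallest adjusted p of the 50 regions (limma adjusted p = 9.20e-05 and 0.000505). As fold enrichment it passed in B10 alone (0.86 and 0.44 log2, limma adjusted p = 0.00632 and 0.123). The region 40.0 kb upstream was gained in both clones, with no peak in WT, ranks of 48.9, 42.7 and 52.1 in B10 and ranks of 93.8, 87.3 and 88.0 in G7. It was the strongest of the 13 gained regions, and it spanned 2750 bp with summits up to 1653 bp apart between libraries. The *Cnmd* surroundings did not move the same way, with medians of −1.37 and −2.15 within 5 Mb against 20.1 and 7.45 over the 4 shared *Cnmd* regions.

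**Figure D5:**
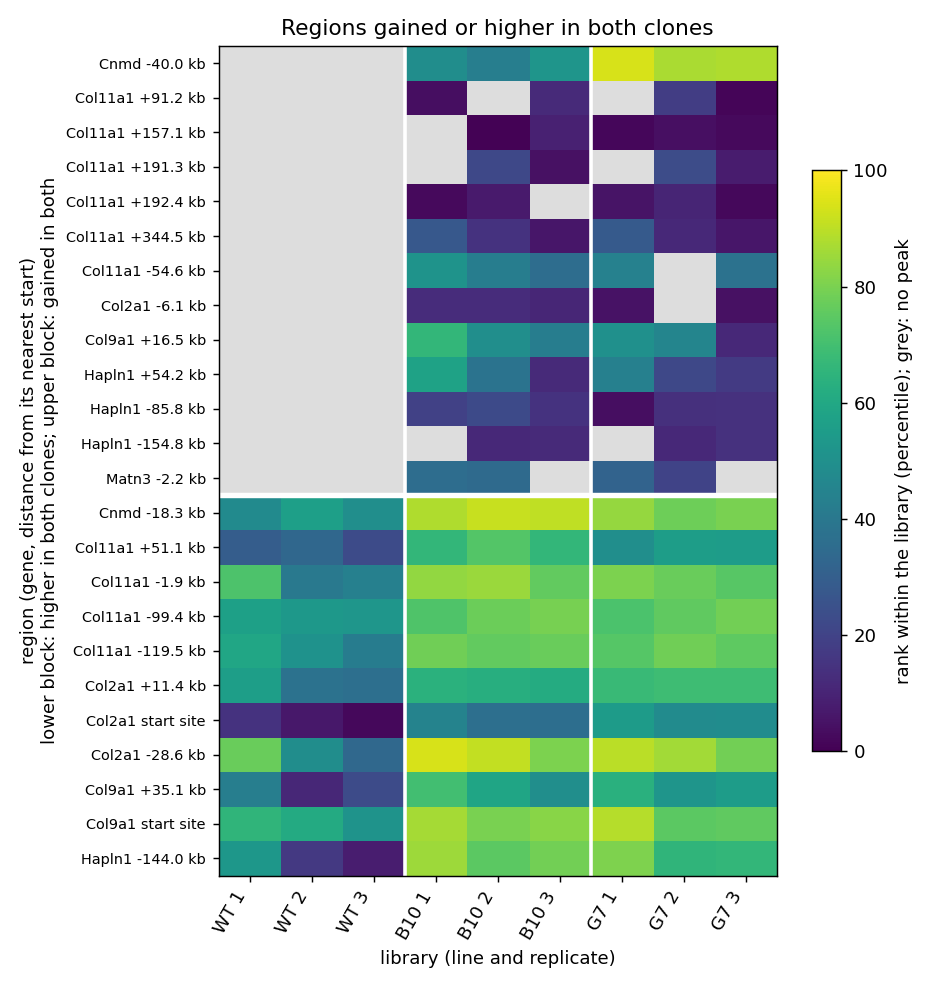
Rank within the library (color, percentile, grey for no peak) of the 13 regions gained in both clones (upper block) and the 11 regions higher in both (lower block), one region per row with its distance from the nearest start, and one library per column. The *Cnmd* region 40.0 kb upstream is the only gained region with ranks above 80, all in G7, and WT replicate 1 is the highest WT library in 9 of the lower 11 rows.

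*Matn3*, an adaptor that links collagen fibrils to proteoglycans, went the other way in B10. The region over its start (chr12:8947602-8948327) ranked 75.2, 70.0 and 74.1 in WT, 43.3, 43.4 and 36.5 in B10, and 65.4, 73.1 and 67.7 in G7. B10 fell by 32.0 (SE 3.92, limma adjusted p = 0.000809), while G7 differed by −4.37 (limma adjusted p = 0.536) and overlapped WT. The clones differed from each other by −27.7 (B10 minus G7, limma adjusted p = 0.00378), and as fold enrichment B10 was again lower than WT (−0.997 log2, limma adjusted p = 0.00265). In the fit without the replicate block it was the only region of the 50 that was lower in either clone by rank. The region 2.2 kb upstream was gained in both clones, in replicates 1 and 2 of each, at ranks of 35.6 and 34.5 in B10 and 31.7 and 20.1 in G7. Nearby regions within 5 Mb had medians of −2.06 in B10 and 1.61 in G7.

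The remaining genes held few changes. *Acan* had no region over either annotated start in any line. Inside the gene, the region 18.5 kb before the second start ranked between 63.5 and 70.4 in all 9 libraries. Another intronic region, 5.2 kb past the first start, was gained in G7, with peaks only in G7 replicates 1 and 3 at ranks of 35.9 and 24.2. A region 62.4 kb upstream of the first start (chr7:78990027-78991058) ranked 75.2, 70.2 and 65.0 in WT, had no peak in any B10 library, and ranked 83.7, 80.9 and 77.6 in G7. B10 was below and G7 above every WT library. With no peak taken as rank 0, the B10 difference was −70.1 (limma adjusted p = 6.04e-05). The G7 difference of 10.6 was not called (limma adjusted p = 0.191). The neighboring region 11.4 kb further on had peaks in all B10 libraries, at ranks of 63.8, 48.3 and 29.7. The region 62.4 kb upstream was named after its values were seen, because the rule for naming regions left out those called in 1 clone. The other *Acan* regions given here were also chosen after their values were seen.

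*Comp*, which binds collagens II and IX, had its strongest region 1.0 kb upstream of the start, at 91.8, 80.3 and 86.6 in WT, 96.4, 94.9 and 96.1 in B10, and 97.0, 91.2 and 90.1 in G7. It was higher in B10 by 9.59 (limma adjusted p = 0.0305) and not called in G7 (6.55, limma adjusted p = 0.139), where it passed with the replicate block (limma adjusted p = 0.0119). This region was chosen after its values were seen. The 6 shared *Comp* regions had medians of 0.45 in B10 and −1.75 in G7, below the 3.87 and 3.92 of the regions within 5 Mb. *Matn1* and *Chad* had 2 regions each, none over a start and none called in either clone. *Matn1* had a peak at both in all 9 libraries, and *Chad* had a peak at both in all but B10 replicate 3. The medians within 5 Mb were 1.06 and 0.81 for *Matn1*, −0.85 and 0.34 for *Chad*, and 0.30 and 0.12 for *Acan*. On the chromosomes of the members, median differences over all shared regions ran from −1.84 (chromosome 14) to 4.92 (chromosome 13) in B10 and from −2.39 (chromosome 1) to 4.17 (chromosome 8) in G7.

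The number of regions with a peak per library was set side by side gene by gene. For *Col11a1* it was 17, 15 and 16 in WT, 23, 26 and 23 in B10, and 23, 24 and 23 in G7. For *Cnmd* it was 6, 5 and 4 in WT, 7 in each B10 library, and 8, 7 and 8 in G7. *Col11a1*, *Hapln1* and *Cnmd* were the 3 of the 7 members with at least 5 regions in which every KO library exceeded every WT library, as did 6.21% of the 6404 genes with that many regions. The opposite pattern held for none of the 7 and for 5.45% of the genes. The exact two-sided permutation p of these 3 genes was 0.1 in each clone, as it was for *Col9a1* and *Comp* in B10. With 3 libraries a side no smaller p can arise, so no gene could pass 0.05 on its own count. The counts include gained regions, which entered the consensus set through KO peaks only and hold no WT peak by definition. This p therefore rests in part on how regions were kept. In 23 of the 102 regions every KO library ranked above every WT library (no peak as 0), and in 1, at *Matn3*, every KO library ranked below, where 6.75% and 7.72% of all regions did so.

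Genes with related roles are given by their counts. Beside them stand the shares over all regions, 2.97% gained and 4.36% lost in both clones, and 3.79% higher and 1.61% lower in both among shared regions. Of 69 regions nearest to 15 other cartilage and joint matrix genes, such as *Col9a2*, *Prg4* and *Fmod*, 1 was gained and 5 were lost in both clones (1.45% and 7.25%). Among 30 shared regions none was higher and 1 was lower in both. That one covered the start of *Fibin*, at 83.7, 86.5 and 86.9 in WT and between 75.0 and 80.3 in the KO libraries. Of 494 regions nearest to 17 regulators of cartilage formation, 22 were gained and 7 lost in both (4.45% and 1.42%). Among their 220 shared regions 11 were higher and 3 lower in both. The start site of *Sox9*, the transcription factor that drives chondrocyte fate, ranked between 95.3 and 98.2 in all 9 libraries. Those of its partners differed, with *Sox6* between 79.7 and 91.5 throughout and *Sox5* at 41.7, 20.1 and 21.3 in WT, absent from B10 and at 1.3 in G7 replicate 3 alone. At *Fgfr3*, a receptor that restrains growth-plate chondrocytes, the start site was higher in G7 (77.7, 79.7 and 77.7) than in WT (57.8, 66.9 and 69.1), and B10 was at 55.6, 49.8 and 54.6. The start sites named in this paragraph were chosen after their values were seen. Others in these lists were also called. *Pth1r*, *Sox8* and *Matn4* were gained in G7, and *Cilp* was lost in both clones. A start of *Runx3* was higher in G7, and a start of *Zbtb20* was lower in B10.

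Leaving out 1 library at a time kept some calls and lost others. For the *Cnmd* region 18.3 kb upstream, the *Col2a1* start site and the *Col11a1* regions 119.5 and 99.4 kb upstream, the higher rank was called in both clones in all 9 fits that each left out 1 library, and the lower rank of the *Matn3* start site in B10 was called in all 9. Other settings bear on these calls. The *Col2a1* start site had no fitted value with −log10 q of at least 10, with equal numbers of peaks or with 50% cover. With 50% cover the *Cnmd* region, the *Col11a1* region 99.4 kb upstream and the *Matn3* start site had none either. As fold enrichment, the *Col2a1* start site was not called in B10, nor the *Cnmd* region in G7. The *Col9a1* start site, the *Hapln1* region 144.0 kb upstream and the *Col11a1* region 51.1 kb downstream were called in B10 in all 9. In G7 they were called in 6, 5 and 8 of 9, with limma adjusted p up to 0.0676 (lost without WT replicate 2, WT replicate 3 or G7 replicate 1), 0.0709 (lost without WT replicate 2, WT replicate 3, G7 replicate 1 or G7 replicate 3) and 0.0559 (lost without G7 replicate 3). The *Col11a1* region 1.9 kb upstream and the *Col2a1* region 28.6 kb upstream were called in 5 of 9 in B10 and 1 of 9 in G7, with adjusted p up to 0.162 (limma). In B10 they were lost without WT replicate 2 or 3 or without B10 replicate 1 or 2, and in G7 they were kept only without WT replicate 1. The *Col9a1* region 35.1 kb downstream was called in 5 and 2 of 9 and the *Col2a1* region 11.4 kb downstream in 3 and 5 of 9, with adjusted p up to 0.125 (limma), and both were lost in both clones without WT replicate 2 or WT replicate 3. Among WT libraries, replicate 1 differed from the others near these genes, and leaving it out raised the share gained in both over all regions. This was not particular to WT or to these genes. In each line replicate 1 had the highest median rank over all consensus regions (55.0 in WT, 56.7 in B10 and 54.3 in G7). Of 11 regions with a peak in all 6 KO libraries and 1 or 2 WT libraries, 6 had a single WT peak, and it was in replicate 1 in all 6. Without WT replicate 1, 19 regions were gained in both clones (5.87% of all regions). Without B10 replicate 2 or G7 replicate 3 there were 8 (2.17% and 2.12% of all regions). The count gained in B10 fell to 14 when B10 replicate 2 was left out (6.41% of all regions). Regions gained in G7 numbered 10 without G7 replicate 1 or 3 (3.57% and 3.50% of all) and 11 without G7 replicate 2 (3.35%). The count of regions with a higher rank was 10 in B10 without B10 replicate 1 or 2 (6.62% and 5.78% of all regions tested). In G7 it was 5 without WT replicate 2, WT replicate 3 or G7 replicate 3 (3.18%, 2.93% and 2.43% of all regions tested). It was 6 without G7 replicate 1 (3.26%) and 7 without G7 replicate 2 (2.90%).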

How the data were processed

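Omni-ATAC libraries of C3H/10T1/2 cells (3 each of WT, B10 and G7, placed by their titles) were sequenced as paired ends, and the authors aligned the reads to mm10 with Rsubread and called peaks for each replicate with MACS2. MACS2 and mm10 are also named in the submitters' processing notes. The MACS2 version is not given in the sources used here. The deposited lists give the position, summit and fold enrichment (a ratio) of each peak, and the authors' −log10 p and −log10 q. Their lowest −log10 q was 1.30 to 1.31, so weaker signal is absent from them. No read counts were used here, so depth, counting intervals and a count model could not be given.

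Peaks on chromosomes 1 to 19, X and Y of all libraries were merged where they touched, and kept with a peak in at least 2 of 3 libraries of a line. Start sites were those of protein-coding transcripts in GENCODE M21, whose build is that of the files, and all peak ends fell inside its chromosomes. The rank of a region was that of its strongest peak. Ranks of the 47431 regions with a peak in all 9 libraries were fitted with limma 3.58.1 (R 4.3.3; trend and robust options, 3 lines, no covariate), with Benjamini-Hochberg adjustment over all of them and a threshold of 0.05. The script was tested on simulated data. Counts per gene used exact permutation tests (scipy 1.17.1). The study's DESeq2 test on reads was not run here.

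Members and gene lists were chosen with earlier results of these data known. Regions were named by rule: for each gene, the region over a start, each region gained or lost in both clones, and up to 3 shared regions with the largest mean rank difference among those called in both clones in 1 direction, and regions outside this rule are said to be chosen after their values were seen. Same-numbered libraries of different lines deviated together (r = 0.31 to 0.66 in 9 pairs, against −0.56 to 0.31 in 18 others), so the libraries may be paired by replicate number. The main fits and the exact tests did not use this pairing. A fit with the replicate number as a block was run beside them, and its values are given for the regions described where they change a call.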

Additional observations from a re-analysis of the deposited data

Results flagged for a closer look

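The KO clones differed from each other at several regions described in the report, of which 3 are given first. The region 62.4 kb upstream of *Acan* ranked below every WT library in B10, where it had no peak, and above every WT library in G7. The gap between clone means was −80.7 percentile points (B10 minus G7, limma adjusted p = 4.08e-05, with no peak taken as rank 0). With the same coding G7 was not called against WT (limma adjusted p = 0.191). The region over the start of *Matn3* ranked lower in B10 than in G7 by −27.7 (limma adjusted p = 0.00378). The region 40.0 kb upstream of *Cnmd* was gained in both clones and ranked lower in B10 than in G7 by −41.8 (limma adjusted p = 0.00141, with no peak taken as rank 0). Among the 50 shared regions, 2 ranked higher in B10 than in G7 and 1 lower, beside 4.09% and 2.31% of all regions tested. The 2 higher ones were the *Col2a1* regions 14.1 kb downstream and 17.0 kb upstream (9.18 and 22.4, limma adjusted p = 0.0281 and 0.0329). The 1 that ranked lower was at *Matn3*. With no peak taken as rank 0, 5 of the 102 regions ranked higher in B10 than in G7 and 5 lower, where 5.60% and 2.37% of all regions did. Those lower in B10 include, chosen after their values were seen, the region 29.9 kb upstream of *Col2a1* (−45.1, limma adjusted p = 0.0226) and the region 157.0 kb upstream of *Col11a1* (−45.6, limma adjusted p = 0.00360), neither of which had a peak in a B10 library.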

How the results depend on the processing

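Of 648 alternative values for the rank differences of the 27 named regions, 618 moved by less than the spread between replicates. That count overstates stability, because part of the 648 could not move. Leaving out a library of one clone cannot change the difference of the other clone from WT. Leaving out a WT library cannot change the difference of a gained region. The exception in sign among called differences was the *Col2a1* region 11.4 kb downstream in B10, at −1.60 when peaks were ranked by fold enrichment, and the cause was not tested. Counts of regions moved more, in part because the settings change how many regions the 10 genes have: 102 in the report, 77 with −log10 q of at least 10, 96 with equal peaks, 98 with 50% cover, 60 within 50 kb, 91 with replicates 2 and 3 only and 132 with replicate 1 only. Regions gained in both clones (13) were 8 with equal numbers of peaks per library (2.77% of all regions) and 4 within 50 kb of a start. For all counts within 50 kb, the share over all such regions was not computed. Those gained in B10 (24) were 15 with −log10 q of at least 10, 13 with equal peaks (9.21% and 8.28% of all regions) and 9 within 50 kb. Those gained in G7 (17) were 10, 18 and 7 under these settings and 32 with replicate 1 only. Over all regions the shares were 4.75% with −log10 q of at least 10, 6.21% with equal peaks and 13.9% with replicate 1 only. Regions lost in both (0) were 1 with equal peaks and 1 when peaks had to cover 50% of a region (4.84% and 5.76% of all regions). With replicate 1 only they were 8, which is 6.06% of its regions where 10.0% of all regions were lost. Those lost in B10 (2) were 4 with the stricter q and 4 with equal peaks (8.61% and 9.22% of all regions), and 1 within 50 kb. With replicate 1 only, 12 were lost in B10 and 11 in G7 (1 in the report), or 9.09% and 8.33% where 14.5% and 15.2% of all regions were. Presence in a single library per line has no replicate check.

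Regions tested by rank also changed in number with the setting. Regions higher in B10 by rank (18 of 50) were 9 of 25 with 50% cover, 6 of 50 by fold enrichment and 34 of 102 with missing peaks at rank 0. Over all regions tested the shares were 11.0%, 3.03% and 11.5%. Within 50 kb there were 11, and no share over all regions was computed there. Those higher in G7 (11 of 50) were 6 of 34 with the stricter q, 5 of 25 with 50% cover and 4 of 50 by fold enrichment. The shares over all regions tested were 4.69%, 5.30% and 1.42%. Within 50 kb there were 7. Regions lower in B10 (1 of 50) were 0 of 25 with 50% cover and 3 of 50 by fold enrichment (4.85% and 3.12% of all regions tested). They were 3 of 53 with replicates 2 and 3 only and 2 of 102 with missing peaks at rank 0 (10.2% and 6.45%). Those lower in G7 (0 of 50) were 1 of 34 with the stricter q, 2 of 50 by fold enrichment and 3 of 53 with replicates 2 and 3 only. The shares over all regions tested were 5.22%, 1.29% and 9.39%. With the replicate block 27 were higher and 2 lower in B10, and 15 were higher and 4 lower in G7. The block raised calls over all regions too, to 22.2% higher and 12.7% lower in B10 and 13.8% and 14.2% in G7.

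With each library left out in turn, regions gained in both were 8 to 19, gained in B10 14 to 31 and gained in G7 10 to 24. Regions lost in both were 0 to 0, lost in B10 1 to 2 and lost in G7 1 to 2. Over all regions the share gained in both ran from 1.98% to 5.87% in these settings. The share gained in B10 ran from 6.41% to 15.9% and that gained in G7 from 3.35% to 9.46%. Shares lost ran from 2.24% to 5.22% in both, from 4.06% to 10.4% in B10 and from 4.01% to 10.0% in G7. Regions higher in B10 were 10 to 22 and lower 1 to 1, and those higher in G7 were 5 to 13 and lower 0 to 1. Over all regions tested the share higher ran from 5.78% to 15.2% in B10 and from 2.43% to 8.55% in G7. The share lower ran from 2.79% to 6.03% in B10 and from 1.95% to 4.59% in G7. Using the 5′ end of each gene changed none of the 10 counts.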
